A study of Caenorhabditis elegans with 2 samples.

Results

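Distal intergenic LIN-35 peaks are the autosomal ChIP-seq peaks of young adult Caenorhabditis elegans that lie away from genes and away from coding promoters. A peak was counted when its summit, the position of strongest enrichment, lay outside every annotated gene of any biotype and more than 500 bp from the 5′ end of every protein-coding gene. The rule uses position alone. It gave 446 of the 2306 autosomal peaks (19.3%, 95% Wilson interval 17.8 to 21.0%) in a thresholded list of 2712 peaks. The other autosomal peaks were 1252 promoter peaks, with a summit within 500 bp of a coding 5′ end, and 608 distal peaks inside genes. Positions are in ce11, the same assembly as WBcel235, and genes are those of Ensembl release 115.

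LIN-35 is the retinoblastoma-family pocket protein of the worm and a subunit of the DREAM complex, which binds promoters and mainly represses transcription, for example of cell cycle genes and, in the soma, of germline genes. DREAM reaches DNA through a pair of contacts. The E2F/DP heterodimer recognises GC-rich E2F sites, and LIN-54 recognises the CHR element, a short AT-rich word often found close to an E2F site at DREAM targets. In the compact worm genome most genes lie close together, and sequence between genes that is far from any coding 5′ end can hold enhancers, the promoters of small RNA genes, promoters of unannotated upstream exons, or repeats.

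The study has 1 group of 2 biological replicates, each of whole young adults of both sexes pooled, so the comparisons are between replicates and between sets of genomic positions, and no test between conditions exists. The strain, YL521, is mutant for unc-119(ed3) and carries the integrated transgene vrIs117. The transgene expresses LIN-35 with GFP and FLAG tags from the germline pie-1 promoter with the puf-5 3′ end, together with a rescuing unc-119 gene. The antibody is listed as lin-35, and the labels do not tell what part of the recovered protein was transgenic, so the peaks cannot be assigned to germline or soma. Peaks are not independent replicates, and the Wilson intervals, and the Newcombe intervals of differences between shares, cover counting error only. The peak lists carry no read numbers, so the depth of the libraries is unknown.

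The summit windows of a few distal intergenic peaks are printed to show the sequence behind the counts that follow. All are the + strand of WBcel235, 5′ to 3′, 100 bases on each side of the summit. The first set holds the 3 strongest peaks with an E2F site, at chrV:2600632-2600832, upstream of F53E10.5, at chrII:6061598-6061798, between a pseudogene and H12I13.1, and at chrIII:7498519-7498719, upstream of the RNA helicase gene cgh-1. Capitals mark the E2F site, searched as the word TTCCCGC, as TTCGCGC, as TTGCCGC and as TTGGCGC on both strands, and the CHR element, searched as TTTGAA or TTCGAA on both strands.
F53E10.5 upstream: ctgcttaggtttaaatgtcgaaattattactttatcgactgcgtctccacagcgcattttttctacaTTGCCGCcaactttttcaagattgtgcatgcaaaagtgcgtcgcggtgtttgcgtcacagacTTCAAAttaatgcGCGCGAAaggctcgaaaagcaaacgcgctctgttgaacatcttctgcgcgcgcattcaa
H12I13.1 intergenic: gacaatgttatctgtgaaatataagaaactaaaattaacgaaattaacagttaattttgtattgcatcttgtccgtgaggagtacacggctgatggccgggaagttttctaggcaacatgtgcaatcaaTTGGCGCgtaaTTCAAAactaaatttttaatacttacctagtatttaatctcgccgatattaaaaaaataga
cgh-1 upstream: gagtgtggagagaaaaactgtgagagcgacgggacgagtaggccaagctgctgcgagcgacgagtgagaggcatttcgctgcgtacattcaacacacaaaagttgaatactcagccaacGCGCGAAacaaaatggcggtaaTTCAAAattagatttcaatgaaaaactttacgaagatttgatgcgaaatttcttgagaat
In the window beside H12I13.1 the E2F site lay 29 to 35 bases and the CHR element 40 to 45 bases to the right of the summit. In the cgh-1 window the corresponding positions were 19 to 25 and 41 to 46. In the F53E10.5 window, E2F sites lay on both sides of the summit and the CHR element between them.

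The second set shows 2 GA-rich words that, in the main windows, were more frequent at distal intergenic peaks than in any set they were compared with. One of them, AGACGCAG, was picked for its frequency in these same windows, so its excess partly follows from that choice. Runs of alternating G and A of at least 10 bases had similar shares at distal intergenic peaks (10.3%) and at distal peaks inside genes (9.05%). Capitals mark GAGAGA on either strand (TCTCTC on the + strand) and the word AGACGCAG (CTGCGTCT on the other strand), which may overlap. The windows were chosen, after values were seen, from the strongest that hold both words. They lie at chrV:20778328-20778528, upstream of hif-1, which encodes the hypoxia-inducible transcription factor, at chrIV:14959596-14959796, upstream of Y41E3.1, at chrIII:12583599-12583799, far upstream of aakg-1, a gamma subunit gene of AMP-activated kinase, and at chrIV:2219558-2219758, upstream of T04C4.3.
hif-1 upstream: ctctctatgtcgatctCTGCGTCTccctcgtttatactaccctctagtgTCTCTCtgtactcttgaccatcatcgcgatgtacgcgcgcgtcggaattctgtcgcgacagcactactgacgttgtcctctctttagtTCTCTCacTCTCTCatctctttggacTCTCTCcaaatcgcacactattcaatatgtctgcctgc
Y41E3.1 upstream: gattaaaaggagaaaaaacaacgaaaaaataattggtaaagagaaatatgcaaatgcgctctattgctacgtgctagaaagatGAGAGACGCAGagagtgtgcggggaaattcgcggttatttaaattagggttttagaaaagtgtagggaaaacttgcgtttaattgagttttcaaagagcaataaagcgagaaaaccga
aakg-1 upstream: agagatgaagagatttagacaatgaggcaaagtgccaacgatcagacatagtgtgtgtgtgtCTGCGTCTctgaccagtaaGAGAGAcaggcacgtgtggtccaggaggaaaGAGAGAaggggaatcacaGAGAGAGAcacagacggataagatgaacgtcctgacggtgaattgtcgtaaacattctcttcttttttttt
T04C4.3 upstream: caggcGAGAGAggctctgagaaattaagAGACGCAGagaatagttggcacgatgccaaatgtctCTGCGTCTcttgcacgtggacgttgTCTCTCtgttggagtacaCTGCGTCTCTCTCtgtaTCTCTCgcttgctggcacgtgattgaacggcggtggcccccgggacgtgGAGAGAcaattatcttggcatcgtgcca
The hif-1 peak had a signal of 169, with 49.5 in replicate 1 and 113 in replicate 2, at 1979 bp from the 5′ end of the gene. The Y41E3.1 peak, 822 bp from its 5′ end, had 159, with 47.7 and 118 in replicates 1 and 2. The aakg-1 peak lay 8298 bp from the 5′ end and had 154, with 46.8 and 102, and the T04C4.3 peak, at 2802 bp, had 134, with 69.1 and 71.1. All 4 were thus found in each replicate, and none is within a coding promoter as annotated.

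The third set shows peaks beside small noncoding RNA genes and 1 peak in repeated sequence. The windows are at chrII:5844720-5844920, next to sls-2.1, an SL2 spliced leader RNA gene, at chrV:15873835-15874035 and chrIII:502698-502898, next to the small nucleolar RNA (snoRNA) genes T06C12.16 and F30H5.4, and at chrIV:3050580-3050780, upstream of the ubiquitin ligase gene eel-1. Capitals mark E2F sites and CHR elements as above, and the snoRNA pair was chosen after values were seen.
sls-2.1: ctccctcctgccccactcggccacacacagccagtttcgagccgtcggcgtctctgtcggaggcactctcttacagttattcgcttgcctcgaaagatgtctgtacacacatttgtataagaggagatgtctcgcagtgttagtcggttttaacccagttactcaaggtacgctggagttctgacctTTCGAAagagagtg
T06C12.16: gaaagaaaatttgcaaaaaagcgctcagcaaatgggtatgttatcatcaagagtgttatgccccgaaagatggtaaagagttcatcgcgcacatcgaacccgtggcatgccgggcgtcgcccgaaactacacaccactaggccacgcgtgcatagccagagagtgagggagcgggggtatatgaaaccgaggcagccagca
F30H5.4: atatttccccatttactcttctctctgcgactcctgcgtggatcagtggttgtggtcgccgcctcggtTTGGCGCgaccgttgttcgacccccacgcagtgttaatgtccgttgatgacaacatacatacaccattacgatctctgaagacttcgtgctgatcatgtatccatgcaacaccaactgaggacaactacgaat
eel-1 upstream: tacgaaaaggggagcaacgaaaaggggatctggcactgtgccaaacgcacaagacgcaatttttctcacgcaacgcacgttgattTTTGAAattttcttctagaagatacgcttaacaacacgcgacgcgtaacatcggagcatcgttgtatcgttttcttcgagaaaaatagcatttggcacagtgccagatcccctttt

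Signal in the thresholded list, a value the authors' caller gave and whose scale is not stated, had a median of 62.2 over the 446 distal intergenic peaks, with the middle 50% between 49.0 and 85.6 and a range of 41.9 to 597. Promoter peaks had a median of 84.4 and reached 2773, and distal peaks inside genes had a median of 55.8 and reached 498. The distal intergenic peaks therefore lay between the other classes, and they lacked the very strong peaks of the promoter class. Of the 446 intervals, 308 (69.1%) were exactly 296 bp wide, the median, and the range was 74.0 to 698 bp.

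**Figure D1:**
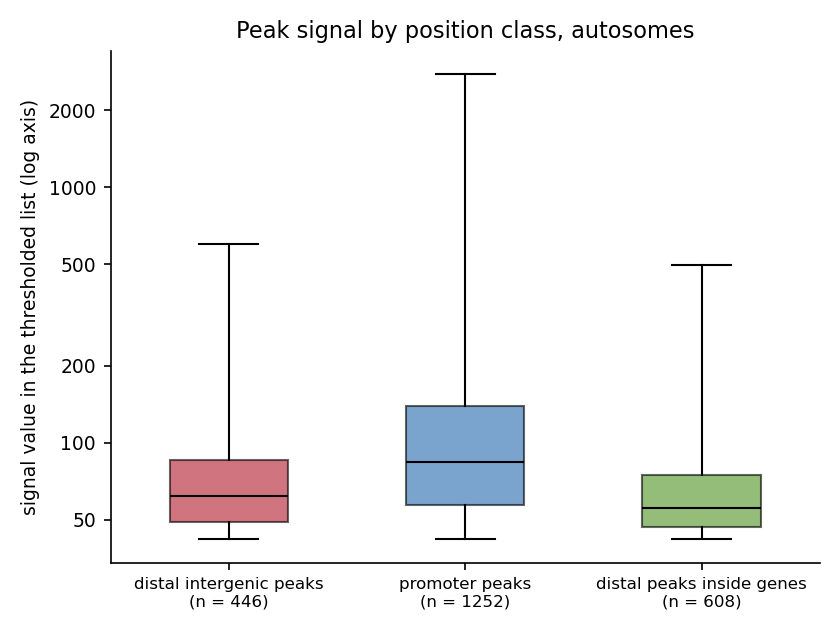
Signal value of autosomal peaks in the thresholded list, on a log axis, by position class; boxes span the middle 50% with the median as a line, and whiskers reach the lowest and highest peak. Distal intergenic peaks have a median of 62.2, against 84.4 for promoter peaks and 55.8 for distal peaks inside genes, and the highest promoter peak, at 2773, is well above the highest distal intergenic one, at 597.

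Each summit was looked up within 200 bp in the relaxed list of each replicate, which holds 30000 peaks in replicate 1 and 26192 in replicate 2. A summit was found in both lists for 420 of the 446 distal intergenic peaks (94.2%, 91.6 to 96.0%), against 94.9% of all autosomal peaks, 96.0% of promoter peaks and 93.1% of distal peaks inside genes. The replicate 1 list held 427, the replicate 2 list 439, and no distal intergenic peak was missing from both. Of the 26 others, 19 were found in replicate 2 alone and 7 in replicate 1 alone. The share is near the background of all autosomal peaks, and the relaxed lists are long, so it separates the classes little.

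When each replicate list was limited to as many peaks as the thresholded list holds, the 2712 of highest signal, 213 of 446 distal intergenic peaks (47.8%, 43.2 to 52.4%) remained in both, against 53.3% of all autosomal peaks. Promoter peaks reached 62.5%, a difference of -14.7 percentage points (-20.0 to -9.33), and distal peaks inside genes 38.7%, a difference of 9.11 points (3.06 to 15.1). A further 123 distal intergenic peaks were among the strongest of replicate 2 alone, 76 of replicate 1 alone and 34 of neither. Support by both replicates followed the signal of the thresholded list, which rests on the same pooled reads. It held for 103 of the 112 strongest distal intergenic peaks (92.0%), for 60.4% and 27.9% of the next groups of 111, and for 12 of the 112 weakest (10.7%).

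At equal signal the classes had similar shares, with overlapping Wilson intervals. Between 41.9 and 51.1, 11.1% of distal intergenic peaks, 8.54% of promoter peaks and 7.0% of distal peaks inside genes were among the strongest of both replicates. Between 68.7 and 111 the shares were 73.3%, 73.8% and 73.5% in the same order, and above 111 all 63 distal intergenic peaks qualified, against 97.1% and 95.1%. The lower support of the distal intergenic class as a whole thus went with its lower signal.

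Signals in the replicates followed each other loosely. Over the 420 distal intergenic peaks found in both lists, Spearman's rank correlation between the replicate signals was 0.355, against 0.660 over 1202 promoter peaks and 0.526 over 2188 autosomal peaks. These are descriptions across peaks that share libraries, and the promoter peaks span a wider signal range. The median log2 ratio of replicate 2 over replicate 1 was 0.69 with an SD of 1.10 across peaks. It was above 1 for 156 distal intergenic peaks and below -1 for 30, on 2 lists whose scales need not match. By rank, 231 of the 420 (55.0%) stood higher in replicate 2. The median summit moved 24.0 bp in replicate 1 and 19.5 bp in replicate 2 from its place in the thresholded list, against 15.0 and 8.0 bp for promoter peaks. A peak beside gei-4 on chromosome III had 2.46 in replicate 1 and 47.4 in replicate 2, a log2 ratio of 4.27, and a peak beside jun-1, a gene of the AP-1 family, had 36.3 and 4.30, a ratio of -3.08. In the thresholded list these 2 peaks had 53.2 and 49.5, below the median. A peak above the median also differed strongly, with 6.62 in replicate 1 and 98.7 in replicate 2, a log2 ratio of 3.90, and 109 in the thresholded list, beside Y17D7C.2.

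**Figure D2:**
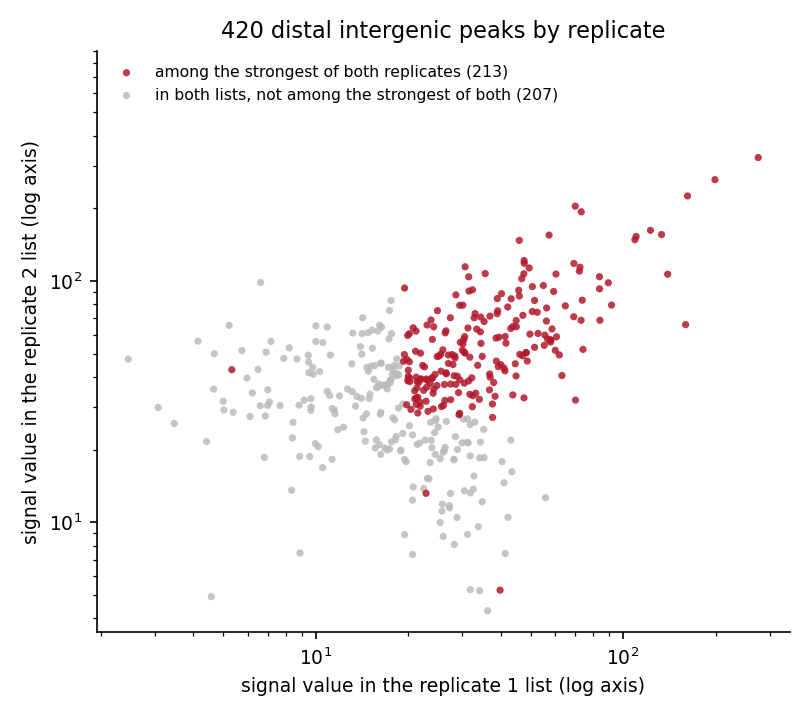
Signal of 420 distal intergenic peaks in the replicate 1 list (x) and the replicate 2 list (y), both on log axes; each point is 1 peak. The 213 peaks that rank high in each replicate (red) fill the upper right, with a few exceptions where the nearest summit in a full list is a weaker peak beside a strong one; the other 207 (grey) are strong in at most 1 replicate, and Spearman's rank correlation is 0.355.

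The 12 distal intergenic peaks of highest signal found in both replicate lists had signals from 219 to 597, and 8 of them lay between 517 and 1802 bp upstream of the nearest coding gene. The strongest, at chrI:16888-17179, had a signal of 597, with 275 in replicate 1 and 325 in replicate 2, ranks 30 and 52 of those lists. It lay between the converging 3′ ends of nlp-40, a neuropeptide gene 192 bp to its left, and rcor-1, a CoREST-like corepressor gene 455 bp to its right, and 5534 bp from the nearest coding 5′ end. The next, at chrI:2639622-2640008, had 488, with 199 and 263 in replicates 1 and 2, and lay between F40E3.3 and mage-1. Both windows hold a CHR element and a GAGA repeat and no E2F site.

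The peak with E2F sites upstream of F53E10.5 was the third, with 408 in the thresholded list, 162 in replicate 1 and 225 in replicate 2, at 1802 bp from the gene's 5′ end. The peak beside H12I13.1 had 297, with 133 and 156 in replicates 1 and 2, and the nearest 5′ end is that of the pseudogene WBGene00020028, at 178 bp. The cgh-1 peak had 268, with 73.1 and 194, at 787 bp upstream of a gene for a DEAD-box RNA helicase of germline granules. These 3 peaks, whose sequences are shown above, ranked between 85 and 276 in each replicate list.

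Other strong peaks lay upstream of coding genes. The peak 576 bp upstream of eel-1, a HECT ubiquitin ligase gene, had 314, with 69.9 and 204 in replicates 1 and 2, and its window is mostly repeated sequence. The peak 925 bp upstream of cbp-1, which encodes the p300/CBP acetyltransferase, had 267, with 110 and 153, and holds a GAGA repeat and neither DREAM word. The peak 673 bp upstream of ppm-1.A, a PP2C phosphatase gene, had 249, with 140 and 107, and the peak 633 bp upstream of cpn-3, a calponin gene, had 219, with 57.5 and 155. The peak 517 bp upstream of Y54G11A.2 and 390 bp past hmg-1.1, an HMG-box gene, had 261, with 123 and 162. Of these 5 windows, the cpn-3 window alone holds an E2F site.

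A pair of the 12 lay at spliced leader genes. SL2 RNAs supply the leader sequence that is trans-spliced onto downstream genes of worm operons. The peak at chrII:5844637-5845208, 45 bp from the 5′ end of sls-2.1, had 277, with 109 and 148 in replicates 1 and 2. The same interval held another distal intergenic summit of signal 149. The peak at chrI:4172015-4172700 lay 20 bp from sls-2.4 and 746 bp upstream of egg-5, a pseudophosphatase gene of egg activation, and had 265, with 160 in replicate 1 and 66.0 in replicate 2. It was the only one of the 12 with a replicate 2 rank beyond 700, at 753.

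Of the strongest distal intergenic peaks absent from a replicate list, 2 are described. They were at chrIV:4725640-4725935, with a signal of 88.3 and no summit in replicate 2, and at chrII:5577128-5577423, 4 bp from a tRNA gene, with 81.9 and none in replicate 2. Their signals in replicate 1 were 62.0 and 39.1 in that order. The first of these summits also matched a neighbouring distal intergenic peak, so both peaks have the same replicate 1 summit. Both peaks lack replicate 2, whereas 19 of the 26 peaks absent from a list lack replicate 1. The first lies in sequence of which 51.4% occurs elsewhere in the genome. Both are above the median signal of 62.2, so absence from a list was not confined to the weakest peaks.

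Distance to the nearest coding 5′ end ranged from 501 to 28644 bp with a median of 1458 bp. Of the 446 peaks, 133 (29.8%) lay at 501 to 1000 bp, 152 at 1001 to 2000 bp, 124 at 2001 to 5000 bp and 37 (8.30%) farther. The nearest group had a median signal of 69.2, and 58.6% (50.1 to 66.7%) were among the strongest of both replicates. The farther groups had medians of 59.2, 60.2 and 64.5, and shares of 43.4%, 41.9% and 45.9%. Peaks at up to 1000 bp were thus somewhat stronger and more often supported by both replicates, and the 3 farther groups lay close together.

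The 3 closest peaks lay at 501 or 502 bp. They were upstream of sor-1, a repressor of Hox genes, with a signal of 131, of gdh-1, the glutamate dehydrogenase gene, with 43.6, and of hrpr-1, an hnRNP R gene, with 67.4. In replicates 1 and 2 the sor-1 peak had 32.4 and 92.0, the gdh-1 peak 26.3 and 32.0, and the hrpr-1 peak 5.23 and 65.5. The closest intergenic peaks on the promoter side of the limit, at 497, 497 and 496 bp, had signals of 48.6, 155 and 84.6. At the lower end of signal, the weakest distal intergenic peaks had 42.0, 41.9 and 41.9, and the next peaks of the pooled list that fell below the authors' threshold had 41.7, 41.6 and 41.5, so neither limit follows a gap in the values.

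The 3 most distant peaks were all close to some annotated gene. The peak at chrIII:12528147-12528245, 28644 bp from a coding 5′ end, had a signal of 79.5, with 17.7 and 60.5 in replicates 1 and 2. It lay 149 bp past the 3′ end of sql-1, a golgin gene, and 86 bp from a pseudogene. The peak at chrI:2514277-2514421, at 16231 bp, had 115, with 39.1 and 75.2, and lay 54 bp from the snoRNA gene Y23H5B.10. The peak at chrIII:2032341-2032636, at 10894 bp from ckr-2, a cholecystokinin-like receptor gene, had 43.9, with 6.85 and 27.6, and lay 29 bp from a tRNA gene.

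Sequence that could hold such a summit, called eligible sequence below, made up 24.2% of the 82.6 Mb of the autosomes. Distal intergenic peaks numbered 22.3 per Mb of it, against 77.5 per Mb of promoter sequence and 13.1 per Mb of distal sequence inside genes. Chromosomes I and III carried 111 and 108 peaks, or 36.5 and 36.3 per Mb, chromosome II 81 peaks, or 21.4 per Mb, and chromosomes IV and V 77 and 69, or 15.2 and 13.5 per Mb. As a share of all peaks on each chromosome the range was narrow, with 21.1% on I, 19.3% on II, 19.7% on III, 19.1% on IV and 17.0% on V. Peaks outside eligible sequence were also densest on I and III, with 34.6 and 40.7 per Mb of that sequence, against 29.5, 26.3 and 21.4 on II, IV and V.

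Within each of the 5 autosomes the central 50% carried more distal intergenic peaks per Mb of eligible sequence than the arms, the outer 25% at each end. The arms held 44 and the centre 67 on chromosome I, at 28.5 and 44.7 per Mb, and 26 and 43 on chromosome V, at 10.6 and 16.2 per Mb. In all, 182 peaks (40.8%, 36.3 to 45.4%) lay in arms, against 51.2% of the windows that tile eligible sequence, a difference of -10.4 points (-14.8 to -5.72). Promoter peaks had 39.9% in arms, which differed by 0.951 points (-4.29 to 6.29), an interval that includes 0. Distal peaks inside genes had 34.7%.

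**Figure D3:**
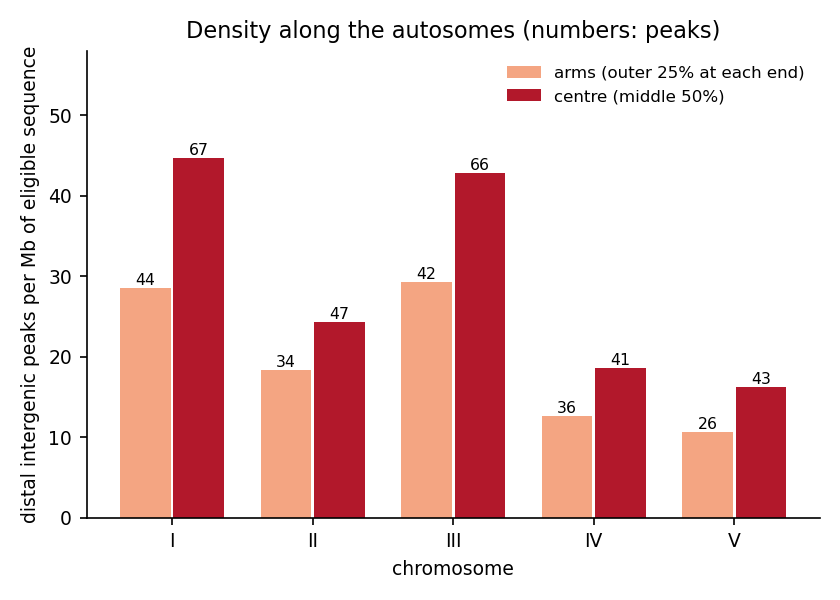
Distal intergenic peaks per Mb of eligible sequence (y) on each autosome (x), for the arms and the centre; the numbers above the bars are peak counts and each bar is a single count over its length, with no replicates. The centre is above the arms on all 5 autosomes, and chromosomes I and III are above II, IV and V in both.

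The nearest coding gene was downstream of 339 of the 446 peaks (76.0%, 71.8 to 79.7%), so that they lay on its 5′ side, as did 72.3% of tiles. Between genes in tandem there were 263 (59.0%), between divergent genes 124 (27.8%) and between convergent genes 59 (13.2%). The tile shares were 53.8%, 32.2% and 13.9%, so tandem gaps held slightly more and divergent gaps slightly fewer peaks than their sequence, with Wilson intervals of 54.3 to 63.4% and 23.8 to 32.1%. The gap between flanking coding genes had a median of 3376 bp and reached 27008 bp.

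Motifs were counted in windows of 201 bp around summits, and in 101767 tiles of the same length over eligible sequence. An E2F site was found in 73 distal intergenic windows (16.4%, 13.2 to 20.1%), against 25.6% of promoter windows, 10.2% of distal windows inside genes and 6.84% of tiles. The differences were -9.27 points (-13.3 to -4.88) from promoters, 6.17 points (2.05 to 10.5) from distal peaks inside genes and 9.53 points (6.38 to 13.3) from tiles. The same words read backwards, which keep the base composition, gave 8.07%, 14.5%, 6.91% and 2.68% in the same order. The reversed words also stood above tiles, and by a larger ratio than the forward words in each of the 3 sets of peaks. TTCGCGC, present in 25 windows (5.61%), and TTGGCGC, in 21 (4.71%), stood farther above tiles (1.11% and 1.21%) than TTCCCGC, in 21 against 2.81%, and TTGCCGC, in 12 (2.69%) against 2.06%.

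GC content differed between these sets. It averaged 43.0% ± 7.88 over distal intergenic windows (SD, n = 446), 39.6% ± 6.45 over promoter windows, 43.2% ± 7.54 over distal windows inside genes and 33.7% ± 6.91 over tiles. Among windows of 30 to 40% GC, an E2F site was present in 18.6% of distal intergenic windows, 25.7% of promoter windows and 6.75% of tiles. Among windows of 40% GC or more the values were 14.2%, 25.6% and 13.1%. At equal GC the excess over tiles was thus seen below 40% GC and was small above it.

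The CHR element was found in 194 distal intergenic windows (43.5%), against 57.4% of promoter windows, 36.8% of distal windows inside genes and 59.1% of tiles. The difference from tiles was -15.6 points (-20.1 to -10.9). The word is AT-rich, and among windows of 40% GC or more the share was 33.0%, against 34.1% of tiles and 47.7% of promoter windows. Its reversed form was also below tiles, with 22.4% against 40.7%, but differed from it at equal GC. Among windows of 40% GC or more the reversed form was in 15.3%, against 24.9% of tiles. At 30 to 40% GC the CHR element was in 60.5%, against 57.1% of tiles, and the reversed form in 34.1%, against 39.9%. An E2F site and a CHR element occurred together in 40 distal intergenic windows (8.97%), against 17.8% of promoter windows, 4.77% of distal windows inside genes and 3.91% of tiles.

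The 73 distal intergenic peaks with an E2F site had signals close to those of the rest. Their median signal was 64.9, against 61.6 for the 373 without, and 47.9% were among the strongest of both replicates, against 47.7%. Among promoter peaks the share with an E2F site was 15.1% at signals of 41.9 to 51.1 and 32.2% above 111. Among distal intergenic peaks it was 14.1% and 15.9% in the same signal ranges. Above 111 the Wilson intervals, 8.86 to 26.8% for distal intergenic and 28.1 to 36.7% for promoter peaks, do not overlap.

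A GAGA repeat, searched as GAGAGA on both strands, was found in 212 distal intergenic windows (47.5%, 42.9 to 52.2%). It was found in 25.3% of promoter windows, 35.2% of distal windows inside genes and 10.4% of tiles. The differences were 22.2 points (17.0 to 27.4), 12.3 points (6.32 to 18.3) and 37.2 points (32.6 to 41.8). The order of the 4 sets was the same at 30 to 40% GC and at 40% GC or more. Below 30% GC it was not, with 10.3% of 29 distal intergenic windows (3.58 to 26.4%), 6.06% of promoter windows, 0 of 25 distal windows inside genes and 4.71% of tiles. The repeat was more frequent than the CHR element at these peaks in the main windows. The reverse held for peaks built without replicate 2 (39.0% and 45.6%), with 150 bp on each side (55.6% and 58.7%) and with a limit of 200 bp from coding 5′ ends (39.2% and 48.2%). Among windows of 40% GC or more the shares were 61.1% of 288 distal intergenic windows, 38.7% of promoter windows, 47.1% of distal windows inside genes and 19.6% of tiles. At 30 to 40% GC they were 25.6% of 129, 16.4%, 17.2% and 10.9%.

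The repeat was seen at all signal levels. At signals of 41.9 to 51.1 it was found in 42.2% of distal intergenic peaks and 25.1% of promoter peaks, and above 111 in 47.6% and 22.1%. Peaks with the repeat had a median signal of 66.4, against 58.6 without it. Their shares among the strongest of both replicates were 48.6% and 47.0%. Of the 7 distal intergenic peaks found in replicate 1 alone none held it, and of the 19 found in replicate 2 alone 10 did. The mean GC of those groups was 33.5% and 42.7%.

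**Figure D4:**
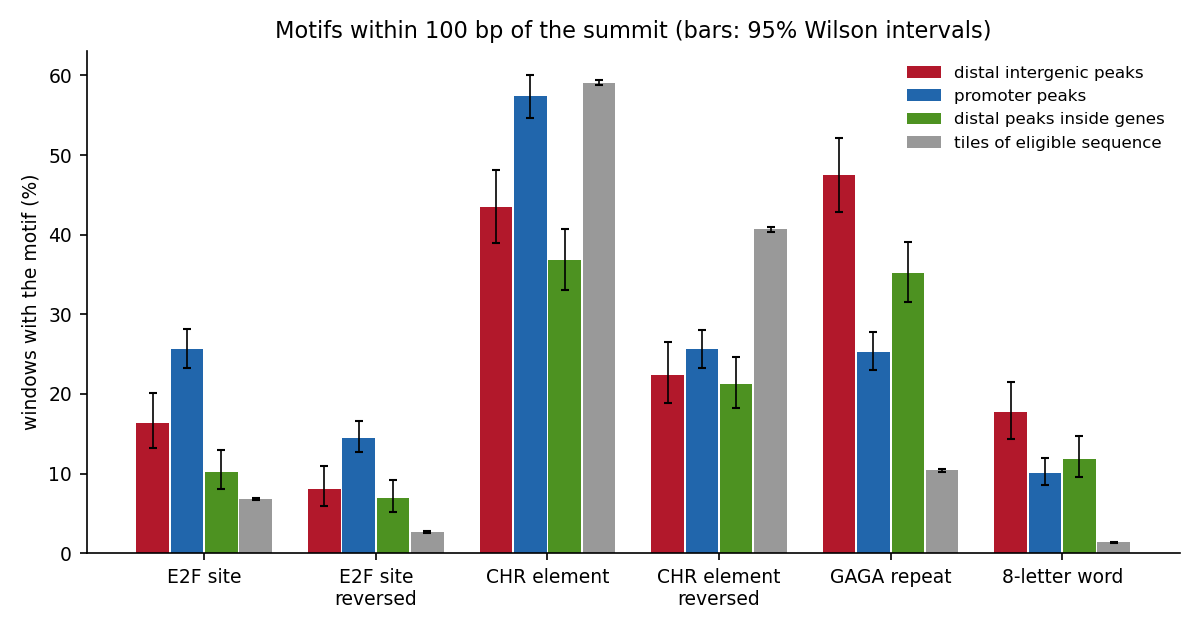
Share of 201-bp windows (y, in %) with each motif (x) for distal intergenic peaks, promoter peaks, distal peaks inside genes and tiles of eligible sequence; error bars are 95% Wilson intervals. GAGA repeats reach 47.5% at distal intergenic peaks, above the other 3 sets, while E2F sites, at 16.4%, stand between promoter peaks (25.6%) and distal peaks inside genes (10.2%).

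In windows with a GAGA repeat, the nearest copy lay close to the summit more often than to the centre of tiles. Among the 212 distal intergenic windows with a repeat, the nearest one was within 25 bp of the summit in 43.4% (36.9 to 50.1%), with a median of 28.5 bp. The corresponding shares were 31.9% at promoter peaks, 39.7% at distal peaks inside genes and 28.5% around tile centres. A window with more copies tends to have a closer nearest copy, and copies per window were not matched between the sets. The words per 100 windows reached 13.9 in the 20 bp that begin at the summit, against 7.62 at the left edge and 7.40 at the right edge of the window. The rise was not steady, with 7.17 at 40 to 21 bp left of the summit. Distal peaks inside genes were highest away from the summit, with 9.38 at 20 to 39 bp right of it. In the steps just left and right of it they had 6.58 and 7.73. E2F sites were within 25 bp in 37.0% of the 73 windows (26.8 to 48.5%), against 46.1% at promoter peaks and 30.3% in tiles.

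**Figure D5:**
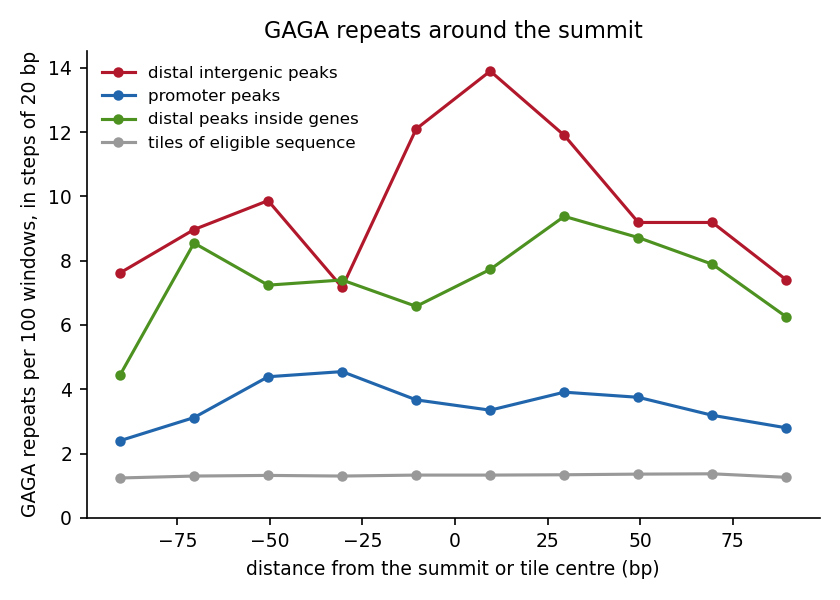
GAGA repeats per 100 windows (y) in steps of 20 bp along the distance from the summit or tile centre (x, bp). Distal intergenic peaks reach 13.9 just right of the summit, with 7.17 in the step from 40 to 21 bp left of it and 7.62 and 7.40 at the outer edges; tiles stay between 1.24 and 1.37.

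The share with the repeat differed with the position of the peak. It was found in 53.7% (48.4 to 58.9%) of the 339 distal intergenic windows upstream of their nearest coding 5′ end and in 28.0% (20.4 to 37.2%) of the 107 that were not upstream, against 10.9% and 9.06% of tiles. Between divergent genes the share was 56.5%, between tandem genes 49.8% and between convergent genes 18.6% (10.7 to 30.4%). Mean GC moved in the same direction, at 44.5%, 43.1% and 39.4%, and its part in the difference was not tested. By distance the share was 42.9% (34.8 to 51.4%) at 501 to 1000 bp and 59.5% (43.5 to 73.7%) for the 37 peaks past 5000 bp. These intervals overlap, and the groups between had 48.0% and 48.4%.

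The other words searched were rarer. The E-box CACGTG was found in 7.17% of distal intergenic windows, 4.71% of promoter windows, 7.73% of distal windows inside genes and 2.74% of tiles. The heat shock element TTCTAGAA was found in 1.79%, 1.36%, 0.987% and 1.76% in the same order, and the GATA site TGATAA in 8.52%, 11.1%, 10.5% and 17.6%. Of these the E-box alone was above tiles beyond counting error, by 4.43 points (2.38 to 7.21). GC content is not equal in that comparison. Among windows of 40% GC or more the E-box was in 8.33% (5.66 to 12.1%) of distal intergenic windows and 4.81% of tiles. At 30 to 40% GC it was in 5.43% (2.65 to 10.8%) and 3.09%. The GATA site was in 6.94% and 9.81% at 40% GC or more, and in 11.6% and 17.8% at 30 to 40% GC.

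Some distal intergenic peaks lay close to the 5′ end of a gene that does not encode a protein, pseudogenes included. Such a 5′ end was within 500 bp of 122 of the 446 summits (27.4%). None was that close to the other 72.6%, against 79.8% of tiles. SnoRNA genes, whose RNAs guide modification of ribosomal RNA, were the nearest for 21 (4.71%, 3.10 to 7.09%), against 0.266% of tiles. All 21 summits lay upstream of the snoRNA 5′ end, 18 of them within 100 bp, with a median of 46.0 bp. The rule leaves out summits inside any gene, snoRNA genes included, so the upstream side of the closest summits follows largely from it. Their median signal was 108, with a range of 43.7 to 162, and 17 of the 21 were among the strongest of both replicates. GAGA repeats were present in 5 and E2F sites in 2. SnoRNA genes were singled out after these counts were seen.

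Among the snoRNA peaks the strongest lay 38 bp upstream of M7.15, at chrIV:11082993-11083190, with a signal of 162, and 47.6 and 107 in replicates 1 and 2. The peak 9 bp upstream of T06C12.16, at chrV:15873859-15874058, had 135, with 35.6 and 107. The peak 6 bp upstream of F30H5.4, at chrIII:502697-502841, had 129, with 56.4 and 77.4. The last holds an E2F site, in capitals in the sequence above, and T06C12.16 holds neither DREAM word.

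Other short RNA genes were also near. Transfer RNA genes were nearest for 13 distal intergenic peaks (2.91%), against 0.244% of tiles, with a median signal of 62.1 and 4 of 13 among the strongest of both replicates. Small nuclear RNA genes, the class in which the annotation places sls-2.1, were nearest for 4 (0.897%), against 0.117% of tiles. All 4 were among the strongest of both, with a median signal of 140. They lay at 3 genes, since the 2 summits of the sls-2.1 interval are both among them. The peak beside sls-2.4 is counted under the ncRNA biotype. Genes of the general ncRNA biotype were nearest for 57 (12.8%, against 5.43% of tiles). The piRNA genes, which occupy much intergenic sequence on chromosome IV, were nearest for 7 (1.57%), against 10.5% of tiles.

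The nearest coding genes were 402 in number, and 37 of them were nearest to more than 1 distal intergenic peak. Counts by gene family were small. Cytosolic ribosomal protein genes were nearest to 4 (0.897%), namely rpl-11.1, rps-13, rps-25 and rps-6, against 3.12% of promoter peaks and 0.252% of tiles. Chemoreceptor genes were nearest to 2 (0.448%, 0.123 to 1.62%), against 0.479% of promoter peaks and 5.46% of tiles. Nuclear hormone receptor genes were nearest to 3 (0.673%, against 1.99% of tiles) and neuropeptide genes, ins-13 and nlp-40, to 2 (0.448%, against 1.38% of tiles). Of the ceh homeobox genes, ceh-48 was nearest to 1 (0.224%, against 0.479% of tiles). Collagen and histone genes were nearest to none of 446, which allows a share of up to 0.673% when 3 counts are taken as the limit, and 0.854% as the upper Wilson bound. Of the genes for DREAM subunits, lin-9 alone was nearest to a distal intergenic peak, with a signal of 42.1. This peak lay 4280 bp from the coding 5′ end, with a piRNA gene closer. It had 6.98 in replicate 1 and 35.5 in replicate 2 and was not among the strongest of both.

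Repeated sequence was rarer at distal intergenic peaks than in the sequence around them. At least 50% of the 25-base words occurred elsewhere in the genome in 6 windows (1.35%, 0.618 to 2.90%), against 15.3% of tiles, 0.479% of promoter windows and 1.15% of distal windows inside genes. Every such word was unique in 368 windows (82.5%), against 63.5% of tiles. How reads with several matches were handled is not given in the sources used here. Its part in this share was not tested. The 2 strongest repeated windows were at eel-1, where 85.9% of words were repeated in up to 56 copies and the printed window carries an inverted repeat with arms of 26 bases, and at chrV:1197288-1197583 near anr-58, where all were repeated, with a signal of 131, and 50.6 and 74.8 in replicates 1 and 2.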

How the data were processed

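LIN-35 ChIP-seq peaks of young adult worms were analysed from the ce11 lists of 2 biological replicates, the pooled list and the thresholded list. Relaxed lists were called on ChIP alignments with a control, per the deposited text indexes, and an irreproducible discovery rate (IDR) step gave the thresholded list. Which aligner and caller were used is not given in the sources used here. The control and the ce10 lists were not analysed here. The authors deposited a signal score per peak, of unstated scale, and it serves here for ranks and descriptions inside 1 list. The deposited −log10 q-value is 3.78 for every thresholded peak and was not used.

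Genes and sequence came from WBcel235 with Ensembl release 115. Summits were matched within 200 bp. Motifs and 25-base words were counted on both strands within 100 bp of each summit, and in adjoining windows of the same length over eligible sequence. Arms are the outer 25% at each end of a chromosome. No test was made: there is 1 group, and shares carry 95% Wilson intervals. Named peaks are the 12 strongest in both replicate lists, the 3 strongest absent from a list, the 3 closest to and the 3 farthest from a coding 5′ end, and the 3 strongest with an E2F site or a CHR element. Of the peaks absent from a list, 1 is not reported here. The definition of the set, the motifs and the gene families were chosen with earlier results of these data known. Python 3.11.15, pandas 2.3.3, NumPy 2.4.6, SciPy 1.17.1, statsmodels 0.14.6 and matplotlib 3.10.9 were used. The position rule, the matching of summits, the copies of 25-base words and the Wilson intervals were checked on simulated data, and the motif counts were not. Alternatives covered list length, distances, windows, arms and each replicate alone.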

Additional observations from a re-analysis of the deposited data

How the results depend on the processing

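Of the alternatives tried, 80 values stayed within the counting error or spread of the value reported or, for the number of peaks, within 1.5 times it, and 43 moved. The number of peaks was 313 with the 1000 bp limit and 338 with the whole peak outside every gene. Shares of windows with a motif follow the window by construction. With 50 bp on each side, E2F sites were in 10.5%, CHR elements in 22.4%, GAGA repeats in 32.3% and AGACGCAG in 10.1% of windows, with a mean GC of 44.8%. With 150 bp they were 20.2%, 58.7% and 55.6% for the first 3, with a mean GC of 41.3%. With the strongest 50% of the thresholded list there were 182 distal intergenic peaks (15.8% of autosomal peaks), of which 97.8% had a summit in each relaxed list and 82.4% were among the strongest of both, with a median signal of 94.7, GAGA repeats in 52.2%, a mean GC of 44.8% and snoRNA neighbours at 7.69%. Peaks among the strongest of both replicates numbered 213 (17.3%), with a median signal of 82.5, a mean GC of 44.4% and snoRNA neighbours at 7.98%. A limit of 200 bp from coding 5′ ends gave 812 peaks (35.2%), of which 55.2% were among the strongest of both, with a median signal of 70.7, E2F sites in 20.4%, CHR elements in 48.2%, GAGA repeats in 39.2% and a mean GC of 41.8%. A limit of 1000 bp gave 13.6% of autosomal peaks and 43.1% among the strongest of both. With the whole peak outside every gene, the share was 14.7% and GAGA repeats were in 53.0%. Summits matched within 100 bp gave 80.5% in both lists and 40.6% among the strongest of both, and within 500 bp 97.5% in both lists. Arms taken as the outer 33% at each end held 59.0%. For peaks taken from the list of each replicate alone, 83.1 to 84.4% had a summit in both lists. Such a peak matches its own list by construction, so this is the share found in the other replicate. It is not comparable with the 94.2% of the thresholded list. In these sets E2F sites were in 12.8 to 14.6%, GAGA repeats in 39.0 to 48.5%, and the mean GC was 40.9 to 43.1%, with the lower of these motif and GC values without replicate 2. With the window length unchanged, the GAGA share ran from 39.0 to 53.0%, above the 10.4% of tiles. The other classes of peaks were not recounted under the alternatives.

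No paired analysis was possible because there is 1 group. The median signal was not computed for single replicates, whose scale differs, and support shares were not computed for peaks chosen by that support. The alternatives for AGACGCAG and for snoRNA neighbours were added after seeing the data. With 2 replicates and no read numbers, the spread between animals or cultures cannot be estimated, and the cause of the differences between the replicate lists was not tested.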

Other observations

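Words of 8 letters were ranked by their frequency at distal intergenic peaks over tiles, among the 32 words found in at least 10% of the windows, and the following was chosen after values were seen. The highest ratio was that of CGCAGAGA, in 49 windows (11.0%), 17.5 times its share in tiles. The overlapping word AGACGCAG was the most frequent of the top 10, in 79 windows (17.7%, 14.4 to 21.5%), against 10.1% of promoter windows, 11.8% of distal windows inside genes and 1.35% of tiles. Among windows of 40% GC or more the shares were 21.5%, 15.8%, 17.6% and 4.50% in the same order. The word was in 27.4% of the 212 distal intergenic windows with a GAGA repeat and in 8.97% of the 234 without. It was in 21.4% of the strongest 112 distal intergenic peaks and in 8.04% of the weakest 112, and in none of the 21 beside snoRNA genes. The word, a GAGA repeat or an E2F site was present in 276 distal intergenic windows (61.9%), against 48.5% of promoter windows, 45.1% of distal windows inside genes and 17.0% of tiles. The word was picked in these same windows, by its ratio to tiles and by its frequency at distal intergenic peaks. Its excess over tiles and over the other sets of peaks, and that of the combined share, therefore partly follow from the choice.

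Uninterrupted runs of alternating G and A of at least 10 bases were in 46 distal intergenic windows (10.3%), against 2.32% of promoter windows, 9.05% of distal windows inside genes and 0.877% of tiles. The longest run had 41 bases at distal intergenic peaks, 19 at promoter peaks, 83 at distal peaks inside genes and 143 in tiles. Upstream of the nearest coding gene, the repeat read GAGAGA on the strand of the gene alone in 53 windows, on the other strand alone in 98 and on both in 31. For AGACGCAG the corresponding counts were 31, 33 and 2. Strands were not counted in tiles or in the other sets of peaks, so these counts have no background beside them.

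The nearest other thresholded summit lay at a median of 4597 bp from distal intergenic peaks, against 6743 bp from promoter peaks and 3456 bp from distal peaks inside genes. The nearest promoter peak lay at a median of 15074 bp from them. No other summit lay within 10000 bp for 152 (34.1%), and 17 (3.81%) had a promoter peak within 1000 bp. Another summit lay within 1000 bp for 64 (14.3%), against 7.75% of promoter peaks and 20.6% of distal peaks inside genes. There were 19 runs of distal intergenic peaks with gaps of at most 1000 bp, holding 40 peaks. A run of 3 peaks, the most in any run, chosen after values were seen, spanned 1661 bp at din-1, which encodes a corepressor of the DAF-12 receptor, with signals of 63.1 to 68.7. Its peak of signal 63.1 lay 33 bp from the 5′ end of the snoRNA gene ZK20.9. A run at rho-1 also held 3 peaks, with signals of 45.4 to 101. In the replicate 1 list 6 and in the replicate 2 list 2 distal intergenic peaks were matched to a summit that another one also matched.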
